A study of Mus musculus with 6 samples.

Results

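Retinoid metabolism and retinoic acid receptors were described through 9 genes, ordered by step: Rbp2 for retinol binding, Rdh10, Dhrs9 and Adh1 for the oxidation of retinol to retinal, Aldh1a1, Aldh1a2 and Aldh1a3 for the oxidation of retinal to retinoic acid, and Rara and Rarb for its reception. Every probe set whose platform annotation gave 1 of these symbols was taken. This found 11 of the 45037 probe sets that were not array controls, for 8 of the 9 genes. No probe set was listed for Dhrs9, a retinol dehydrogenase, so it was not analysed here. Of the 8 genes, 7 reached the signal needed for the test over 10916 genes, and Rarb did not.

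The samples were 3 colons of control mice and 3 of HDAC2 KO mice, 1 array each. In the HDAC2 KO group the floxed Hdac2 gene, which encodes a histone deacetylase, had been deleted by Cre recombinase under the villin promoter. That promoter is active in intestinal epithelial cells, so other cells of the colon kept the gene. All mice were of a background mixed from CD-1, 129 and C57BL/6, received no treatment and ate a normal diet. Their ages, and whether controls carried floxed alleles or Cre, are not given in the sources used here. The description label of the HDAC2 KO group also names HDAC1, whereas the title and genotype name HDAC2 alone. The labels name both epithelium and colon as the source. Each marker list of epithelium, muscle, fat and leukocytes had members above the signal filter, so the RNA held more than epithelium.

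Vitamin A reaches the intestinal epithelium as retinol, retinyl esters or carotenoids. Retinol is held by cytosolic binding proteins, esterified for storage, or oxidised reversibly to retinal and then irreversibly to retinoic acid. Retinoic acid binds retinoic acid receptors, which pair with retinoid X receptors on response elements in DNA. Without ligand, these pairs recruit corepressor complexes that contain histone deacetylases. In the gut, retinoic acid made by epithelial, stromal and dendritic cells is known for its part in epithelial differentiation and in directing lymphocytes to the mucosa.

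Signals are RMA log2 values, so a difference of 1 is a 2-fold change. A gene was called at a Benjamini-Hochberg adjusted p under 0.05 from limma over all genes tested. Of all genes, 17.9% were called, with 9.68% higher after Hdac2 deletion and 8.2% lower. Hdac2 itself read 10.40 ± 0.031 in controls against 10.19 ± 0.058 after deletion (SD, n = 3), a fall of 13.7% (limma adjusted p = 0.00893). The position of its probes against the deleted exons was not examined, and its call was lost in 2 of 16 other fits (adjusted p between 0.00133 and 0.0957). Arrays of 1 group correlated with r between 0.9964 and 0.9989 over the genes tested, and replicate 2 of HDAC2 KO deviated most from the mean of its group.

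No promoter window of Aldh1a3 or Rdh10 was in the sequences used here. The promoters of the called genes other than Aldh1a3 are shown because their start regions are where receptors and deacetylases can act. That of Rarb, which encodes retinoic acid receptor beta, is shown as the textbook retinoic acid response element. Each is the RefSeq window of 250 bases before to 50 bases after a start site, in build GRCm38.p6, 5′ to 3′ on the gene's strand. Capitals mark the receptor half-sites AGGTCA or its variants GGGTCA or AGTTCA or GGTTCA, searched on both strands. The windows are chr9:98490287-98490586 (+) for Rbp2, chr3:138277335-138277634 (+) for Adh1, chr19:20601718-20602017 (+) for the downstream of 2 start sites of Aldh1a1, chr9:71215539-71215838 (+) for Aldh1a2 and chr14:16575427-16575726 (-) for Rarb.
Rbp2: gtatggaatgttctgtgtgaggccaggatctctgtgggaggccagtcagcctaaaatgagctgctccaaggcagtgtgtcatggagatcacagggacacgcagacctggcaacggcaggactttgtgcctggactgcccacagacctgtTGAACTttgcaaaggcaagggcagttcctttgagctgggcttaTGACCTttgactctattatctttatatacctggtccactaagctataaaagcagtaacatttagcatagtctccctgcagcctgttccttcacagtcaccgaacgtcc
Adh1: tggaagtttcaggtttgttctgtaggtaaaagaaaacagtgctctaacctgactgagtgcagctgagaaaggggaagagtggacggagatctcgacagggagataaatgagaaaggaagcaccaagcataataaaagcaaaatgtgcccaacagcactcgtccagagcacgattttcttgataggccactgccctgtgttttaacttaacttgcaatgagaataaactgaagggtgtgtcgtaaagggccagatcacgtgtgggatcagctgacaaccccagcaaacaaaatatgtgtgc
Aldh1a1: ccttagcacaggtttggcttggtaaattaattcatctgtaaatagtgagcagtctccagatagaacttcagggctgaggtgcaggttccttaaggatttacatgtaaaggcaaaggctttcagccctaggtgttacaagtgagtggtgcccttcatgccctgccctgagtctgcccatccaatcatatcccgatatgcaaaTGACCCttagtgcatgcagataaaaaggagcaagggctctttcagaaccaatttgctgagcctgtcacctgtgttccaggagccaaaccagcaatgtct
Aldh1a2: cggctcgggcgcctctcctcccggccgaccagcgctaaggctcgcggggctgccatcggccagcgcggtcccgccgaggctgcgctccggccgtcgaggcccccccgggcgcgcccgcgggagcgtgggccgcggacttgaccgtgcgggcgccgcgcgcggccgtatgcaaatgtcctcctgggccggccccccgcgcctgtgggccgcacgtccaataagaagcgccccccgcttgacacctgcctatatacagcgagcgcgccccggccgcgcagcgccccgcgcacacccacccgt
Rarb: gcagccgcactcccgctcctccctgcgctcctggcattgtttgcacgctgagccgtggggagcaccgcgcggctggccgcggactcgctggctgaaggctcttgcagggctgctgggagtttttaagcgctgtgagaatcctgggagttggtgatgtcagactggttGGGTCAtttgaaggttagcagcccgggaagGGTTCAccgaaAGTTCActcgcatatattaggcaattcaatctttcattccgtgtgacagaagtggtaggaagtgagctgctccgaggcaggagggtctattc

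The Rarb window held 3 half-sites, and 2 of them, GGTTCA and AGTTCA with 5 bases between, formed a direct repeat from 53 to 37 bases upstream of the start. Such a repeat, known as DR5, was found in 32 of 32851 promoter windows of the same length, or 0.0974%. The Rbp2 window held 2 half-sites, 101 to 96 and 58 to 53 bases upstream, and the Aldh1a1 window shown held 1, 49 to 44 bases upstream. The window at the other Aldh1a1 start site, chr19:20492333-20492632 (+), held 0. Among the windows not shown, those of Rara, a gene that was not called, held 4, 1, 0 and 0 half-sites, and that of Dhrs9 held 1. In all, 6 of the 11 windows found for 7 of the 9 genes held a half-site. Single half-sites were present in 43.7% of all windows. No half-site of these letters stood in the Aldh1a2 and Adh1 windows. Direct repeats with 1 or 2 bases between, DR1 and DR2, were in 0.222% and 0.268% of all windows and in none of the 11.

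In HDAC2 KO colon, the retinaldehyde dehydrogenase genes Aldh1a1 and Aldh1a2 were higher by 1.31-fold and 1.52-fold, and the alcohol dehydrogenase gene Adh1 was 1.15-fold lower. Rbp2 and Aldh1a3 were also called higher, by 1.12-fold and 1.20-fold, close to the threshold. Aldh1a3 was tested here through 1 of its 3 probe sets, that of highest mean. Rdh10 and the receptor genes Rara and Rarb were not called. In all, 4 of the 7 genes tested were called higher and 1 lower, beside the 9.68% and 8.2% of all genes given above. The 7 were those that passed the signal filter, and Aldh1a3 passed it through its HDAC2 KO mean alone. Over single probe sets, 5 of the 11 had groups that did not overlap, against 23.2% of all 45037. When each probe set was tested by itself, 2 of the 11 were called, those of Aldh1a1 and Aldh1a2, against 3.8% of all. In RNA of mixed cells, a change in the number of cells of a type and a change in RNA per cell cannot be told apart.

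**Figure D1:**
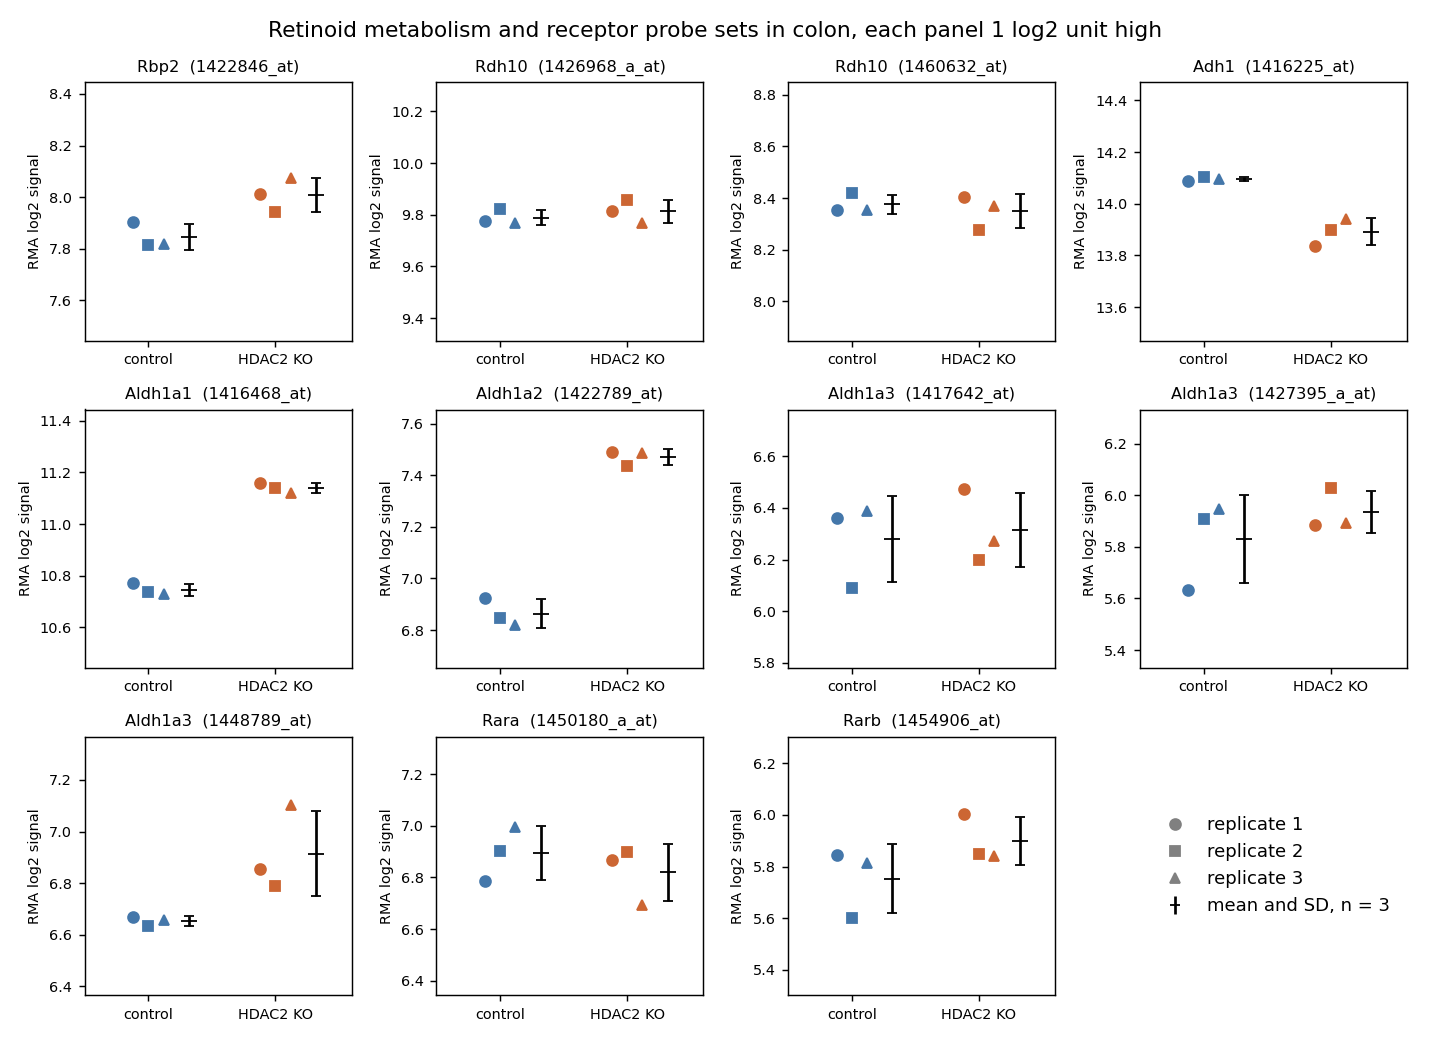
RMA log2 signal of the 11 probe sets on each array, control in blue and HDAC2 KO in orange, symbols by replicate number, bars mean and SD of 3 arrays; every panel spans 1 log2 unit. The groups lie apart for Rbp2, Adh1, Aldh1a1, Aldh1a2 and Aldh1a3 probe set 1448789_at, and overlap in the other 6 panels.

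Rbp2 encodes the cellular retinol binding protein of absorptive enterocytes, which carries retinol and retinal taken up from the gut lumen. Its probe set read 7.90, 7.82 and 7.82 in the control colons and 8.01, 7.94 and 8.07 in those of HDAC2 KO mice. All 3 HDAC2 KO arrays lay above all 3 controls, the closest values being 7.90 and 7.94. The difference was 0.16 (SE 0.045, 95% confidence interval 0.059 to 0.267, limma adjusted p = 0.0419). Leaving out HDAC2 KO replicate 2 kept this call, but leaving out any other array lost it, with adjusted p of 0.0591 to 0.133. It was lost in 3 further settings, and the adjusted p ranged from 0.0139 to 0.194 in all. Other genes of small intestinal enterocytes rose as well: 4 of 4 tested markers were called higher, among them Fabp2, an intestinal fatty acid binding protein, by 0.85. The summed linear signal of that marker list lay between 3996 and 4205 on control arrays and between 8193 and 8328 on HDAC2 KO arrays. Its part in the Rbp2 value was not tested.

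Among the other carriers and uptake receptors of the pathway, 2 of 4 tested genes rose and 1 fell. Rbp7, a cellular retinol binding protein gene, rose by 0.27 (SE 0.046, adjusted p = 0.00514). Rbp4, which encodes the retinol carrier of blood plasma, rose by 0.19 (SE 0.044, adjusted p = 0.0231). Its groups lay close, the highest control value being 9.03 and the lowest HDAC2 KO value 9.11. The Rbp4 call was lost in 6 of 16 other settings, including those without control replicate 1 (0.0858), control replicate 3 (0.0731), HDAC2 KO replicate 1 (0.0851) or HDAC2 KO replicate 3 (0.0503). Ttr, which encodes transthyretin, the partner of that carrier in plasma, read 11.33, 11.34 and 11.31 in control and 10.70, 10.61 and 10.66 in HDAC2 KO. Ttr fell by 0.67 on the log2 scale (SE 0.036, adjusted p = 1.22e-05), and all 4 of its probe sets were called lower. The names of all 4 end in _a_at, _x_at or _s_at, which marks probes that may match several transcripts. Ttr therefore had no value in the setting without such probe sets. The retinol receptor gene Stra6 and the retinoic acid binding protein gene Crabp2 lay below the signal filter, with overlapping groups.

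Genes of retinyl ester and carotenoid handling moved in both directions, with 3 of 9 tested higher and 3 lower. Isx, an intestinal homeobox repressor gene that retinoic acid is known to induce, read 8.17, 8.22 and 8.17 in control and 8.69, 8.79 and 8.63 in HDAC2 KO. The groups were far apart, and Isx was 1.43-fold higher (0.52, SE 0.045, adjusted p = 0.000199). The genes that ISX is known to repress, Bco1 for the central cleavage of beta-carotene and the uptake receptor gene Scarb1, were not called (-0.0070, SE 0.045, adjusted p = 0.939, and 0.088, SE 0.056, adjusted p = 0.334). Bco2, which encodes the eccentric cleavage enzyme of carotenoids, rose by 0.27 (SE 0.047, adjusted p = 0.00645). Lrat, the gene of the main retinol esterifying enzyme, differed by 0.29 (SE 0.076, adjusted p = 0.0335) in 1 probe set. That probe set passed the filter through its HDAC2 KO mean of 6.95, with control at 6.66. A second Lrat probe set of low signal differed by -0.086 and was not called. The Lrat call was lost in 6 of 14 other settings, among them those without control replicate 1 (0.0587), control replicate 3 (0.0670), HDAC2 KO replicate 1 (0.108) or HDAC2 KO replicate 2 (0.0561).

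The 3 genes of this list that fell encode proteins of fat tissue, and those of Lpl and Cd36 also act in lipid uptake. Lpl, for lipoprotein lipase, and Cd36, for a fatty acid receptor, were 2.66-fold and 2.65-fold lower, and Lipe, for hormone-sensitive lipase, 1.34-fold lower. The adipocyte markers moved with them: 4 of 4 tested fell, led by Adipoq, the gene of adiponectin, at 10.32 ± 0.062 in controls against 7.29 ± 0.029 after Hdac2 deletion (SD, n = 3). Their summed linear signal lay between 4765 and 5029 in control and between 1254 and 1318 in HDAC2 KO. The part of fat in these 3 values was not tested. Lipe passed the filter through its control mean of 7.07, with HDAC2 KO at 6.65. A second Lipe probe set of low signal differed by 0.0037 and was not called. The Lipe call was lost in 1 of 14 other settings, the limma test of all probe sets (adjusted p = 0.0593).

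Rdh10 encodes a retinol dehydrogenase of the endoplasmic reticulum that makes retinal during development. Its probe set 1426968_a_at read 9.77, 9.82 and 9.77 in control and 9.82, 9.86 and 9.77 in HDAC2 KO, and probe set 1460632_at read 8.36, 8.42 and 8.35 against 8.40, 8.28 and 8.37. The groups overlapped in both, and the differences, 0.025 and -0.025, had opposite signs. For the first, limma gave an adjusted p of 0.695 with a 95% confidence interval of -0.060 to 0.111.

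Adh1 encodes a cytosolic class I alcohol dehydrogenase that oxidises ethanol and retinol. Its probe set read 14.09, 14.10 and 14.10 in the control colons and 13.84, 13.90 and 13.94 in those of HDAC2 KO mice. All HDAC2 KO arrays lay below the narrow control range. Adh1 fell by 0.20 on the log2 scale (SE 0.037, 95% confidence interval -0.289 to -0.119, adjusted p = 0.0075). The call held in 15 of 16 other settings and was lost when each probe set was tested by itself (adjusted p = 0.0732, lowest over all settings 6.62e-05). The signal lay near the upper end of the arrays, where the highest values were 14.57 to 14.64 and where differences can be compressed. Fat tissue also expresses Adh1, and the fall of the adipocyte markers given above moved in the same direction. Its part in the Adh1 value was not tested. Summed markers of general epithelium were 1.03 times the control mean in HDAC2 KO, with 0 of 6 called, and those of absorptive colonocytes were 1.21 times, with 5 of 8 called higher.

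Of 13 other tested oxidoreductases of retinol or retinal, 4 rose and 1 fell. Rdh16 and Rdh9, which encode paralogous short-chain retinol dehydrogenases, were 1.34-fold and 1.27-fold higher (0.43, SE 0.053, adjusted p = 0.00113, and 0.35, SE 0.039, adjusted p = 0.00071). Rdh16 read 7.43, 7.46 and 7.45 in control and 7.93, 7.75 and 7.93 in HDAC2 KO, and Rdh9 read 9.20, 9.21 and 9.12 against 9.53, 9.49 and 9.56. Both separated the groups, but the suffix of the Rdh9 probe set, _s_at, marks probes shared by several transcripts, so paralogs cannot be told apart by it. Akr1b8, an aldo-keto reductase gene whose product can reduce retinal, was 1.36-fold higher (0.44, SE 0.041, adjusted p = 0.000265). Rdh5, the gene of a retinol dehydrogenase known from the eye, differed by 0.13 (SE 0.038, adjusted p = 0.0472) and lost its call in 12 of 15 other settings. These were, among others, the fit that blocked on replicate number (adjusted p = 0.0793) and those without any 1 of the 6 arrays (0.0774 to 0.152). Dhrs4, a retinal reductase gene, differed by -0.15 (SE 0.042, adjusted p = 0.0483). Its call was lost in 9 of 15 settings, including those without any array other than control replicate 3 (0.0678 to 0.172). Retsat, which encodes retinol saturase, differed by -0.12 (SE 0.044, adjusted p = 0.113). It was called lower in 3 of 16 other settings: the mean of its probe sets (0.0488), array weights (0.0150) and without control replicate 3 (0.0351). Dhrs3, a retinal reductase gene that retinoic acid induces, differed by 0.059 (SE 0.040, adjusted p = 0.364).

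**Figure D2:**
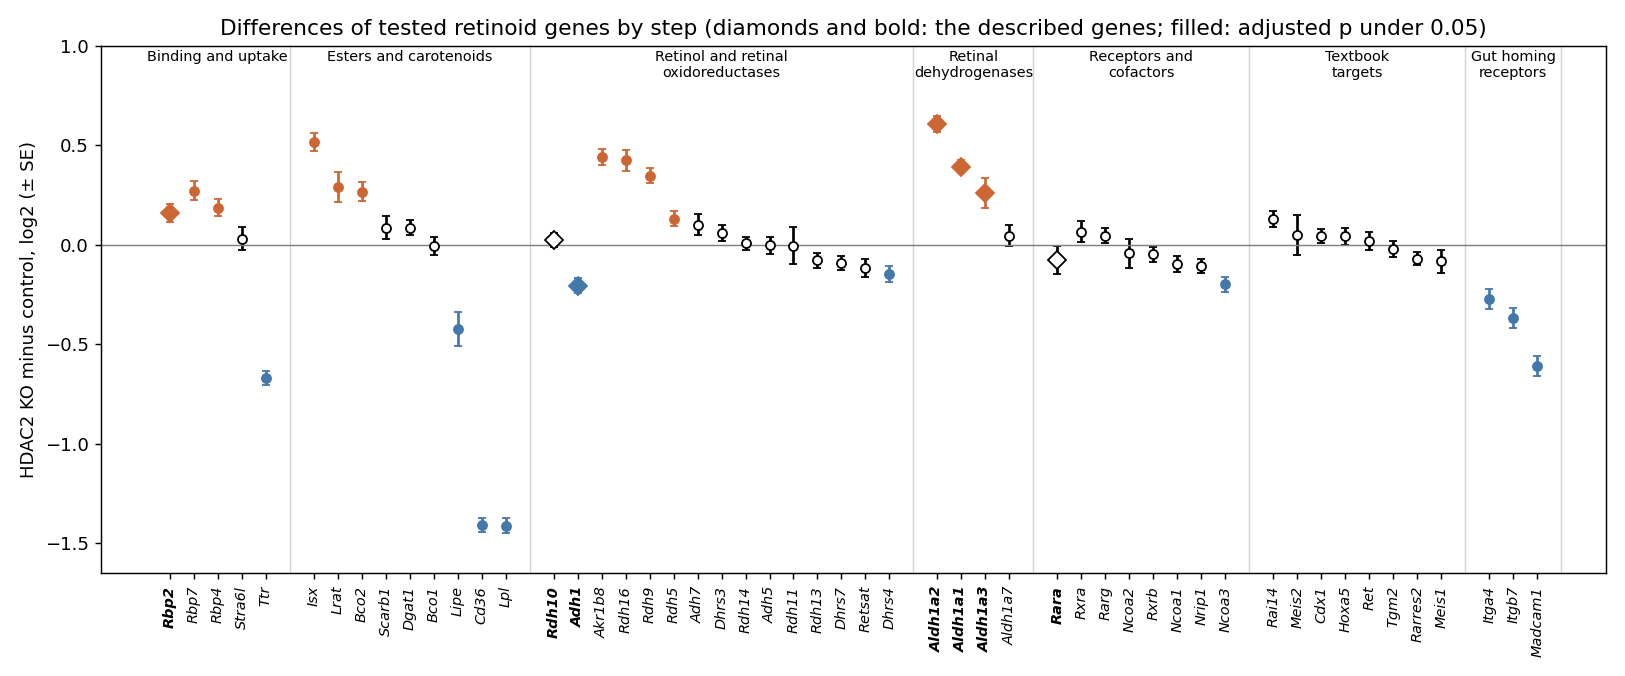
Log2 difference of HDAC2 KO from control with SE for the 7 tested genes described here (diamonds, bold names) and 45 other tested retinoid genes (circles), grouped by step, each gene shown once; orange marks genes called higher, blue called lower and open symbols not called. Aldh1a2, Aldh1a1 and Isx lie at 0.61, 0.39 and 0.52, while Lpl and Cd36 lie near -1.41 and the receptors lie close to 0.

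Aldh1a1 encodes a cytosolic retinaldehyde dehydrogenase that also oxidises other aldehydes. It read 10.77, 10.74 and 10.73 in the control colons and 11.16, 11.14 and 11.12 in those of HDAC2 KO mice. Each group spanned a narrow range, and the groups were far apart. The difference was 0.39 (SE 0.032, 95% confidence interval 0.318 to 0.468, adjusted p = 0.000142). Of the 10916 genes tested, 138 had a larger rise. The call held in all 16 other settings run, with differences from 0.38 to 0.41 and adjusted p between 1.27e-06 and 0.00366. Markers of absorptive colonocytes, the main epithelial type of colon, moved with it: 5 of 8 tested were called higher and 0 lower. Car1, a carbonic anhydrase gene, rose by 0.46, Krt20, a keratin gene of the surface epithelium, by 0.48 and Tmigd1 by 0.75. Slc26a3, Ceacam1 and Car4 were not called, with differences of 0.046, 0.076 and 0.096 (adjusted p = 0.523, 0.140 and 0.0755). The summed linear signal of that list lay between 54094 and 54281 on control arrays and between 64181 and 66453 on HDAC2 KO arrays, 1.21 times control on average. Its part in the Aldh1a1 value was not tested. Aldh1a7, a close paralog of Aldh1a1, differed by 0.046 (SE 0.053, adjusted p = 0.605), and its groups overlapped.

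Aldh1a2 encodes the retinaldehyde dehydrogenase of embryonic mesoderm, which in the adult gut is known from dendritic cells, stroma and mesothelium. Its signal was 6.93, 6.85 and 6.82 in control and 7.49, 7.43 and 7.49 in HDAC2 KO. The highest control value was lower than the lowest HDAC2 KO value by more than either group's range. The difference was 0.61 (SE 0.039, 95% confidence interval 0.516 to 0.698, adjusted p = 3.62e-05), and 56 of the genes tested had a larger rise. It was called in all 15 other settings that gave a value, with differences from 0.58 to 0.64 and adjusted p between 4.82e-06 and 0.000812. The lowest control signal, 6.82, lay close to the filter level of 6.66, and RMA understates folds near the low end.

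Markers of the cells known for Aldh1a2 were measured on the same arrays. Of 5 tested macrophage and dendritic cell markers, 3 fell and 1 rose. The summed signal of the list went from 8968 to 9241 in control to 8206 to 8412 in HDAC2 KO. It includes Ptprc, the CD45 gene of leukocytes in general, which fell by 0.80. Csf1r, the receptor gene of the macrophage growth factor, fell by 0.29 and Lyz2 by 0.32, while Cd14 rose by 0.32. The integrin gene Itgae was not called (-0.082, adjusted p = 0.381), and its groups overlapped. The dendritic cell integrin gene Itgax stayed under the filter, with means of 6.49 in control and 6.28 in HDAC2 KO and groups that did not overlap. Among the others under the filter, Cd68, Adgre1 and Cx3cr1 had overlapping groups and Cd209a did not. Of 7 fibroblast markers, 1 fell and 6 were not called, and their summed signal overlapped between groups, at 11805 to 12216 and 11597 to 11929. Of 5 mesothelium markers, only Upk1b passed the filter, with overlapping groups and a difference of 0.26 that was not called (adjusted p = 0.136). The other 4 had lower HDAC2 KO means, with differences of -0.19 for Msln, -0.46 for Upk3b, -0.31 for Wt1 and -0.65 for Lrrn4, and the groups overlapped only for Msln. Smooth muscle markers rose in 3 of 6 cases, with a summed signal 1.09 times that of control. The part of these cells in the Aldh1a2 value was not tested.

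**Figure D3:**
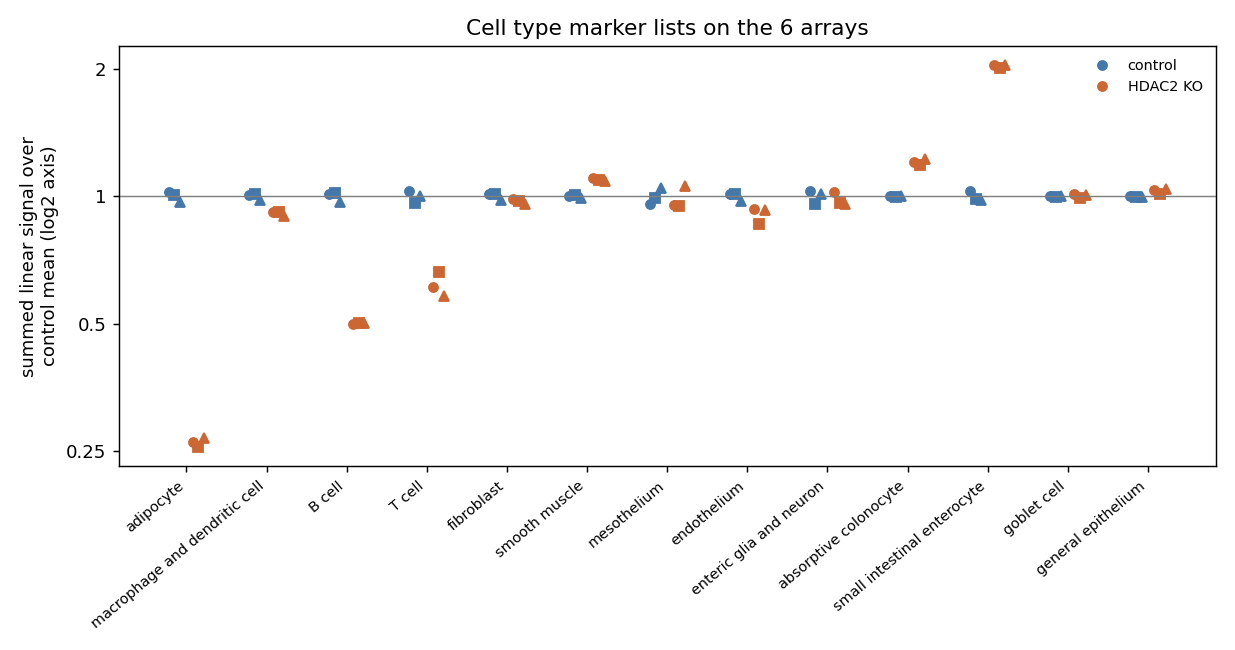
Summed linear signal of each cell type marker list on the 6 arrays, divided by the control mean, on a log2 axis; control in blue, HDAC2 KO in orange, symbols by replicate number. Adipocyte, B cell and T cell lists lie at 0.262, 0.501 and 0.617 of control on average, the small intestinal enterocyte and absorptive colonocyte lists at 2.03 and 1.21, and the general epithelium and goblet cell lists at 1.03 and 1.00.

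Aldh1a3 encodes the third retinaldehyde dehydrogenase. Its 3 probe sets differed in the same direction by unlike amounts, and none of them was called when each was tested by itself. Probe set 1448789_at read 6.67, 6.63 and 6.66 in control and 6.85, 6.79 and 7.10 in HDAC2 KO, with HDAC2 KO replicate 3 standing above the other arrays. The difference was 0.26 (SE 0.074, 95% confidence interval 0.091 to 0.432, adjusted p = 0.0452). Probe set 1417642_at read 6.36, 6.09 and 6.39 against 6.47, 6.20 and 6.27, and 1427395_a_at read 5.63, 5.91 and 5.95 against 5.88, 6.03 and 5.89. Both of these had overlapping groups, with differences of 0.036 (SE 0.10) and 0.11 (SE 0.091). The control mean of 1448789_at, 6.65, lay below the filter level, so the gene entered the test through its HDAC2 KO mean of 6.91. The call was lost in 9 of 15 other settings, with adjusted p between 0.0108 and 0.162. Among these were the mean of its probe sets (0.13, adjusted p = 0.0750) and the fits without control replicate 1 (0.112), control replicate 2 (0.126), control replicate 3 (0.119) or HDAC2 KO replicate 1 (0.0730). Without HDAC2 KO replicate 3 the call was kept.

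**Figure D4:**
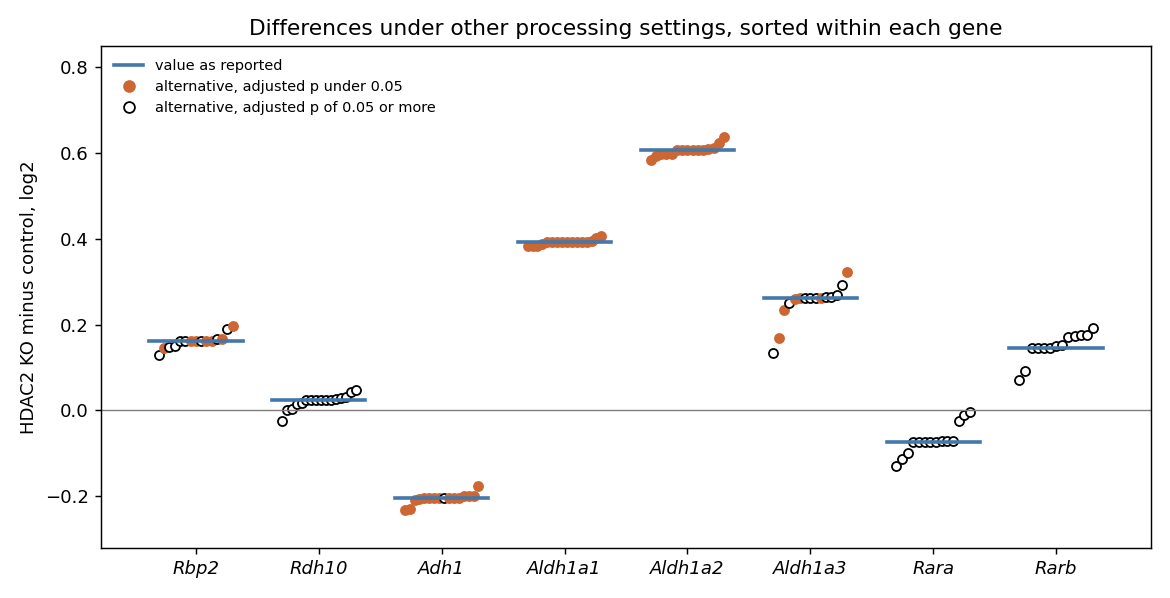
Log2 difference of HDAC2 KO from control for the 8 measured genes, as reported (blue line) and under the other processing settings (points sorted by value; orange where the adjusted p is under 0.05, open otherwise). Aldh1a1 and Aldh1a2 are orange throughout, Adh1 in 15 of 16 settings, Rbp2 in 7 of 15 and Aldh1a3 in 6 of 15; Rdh10, Rara and Rarb are open throughout.

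The receptors did not separate the groups. Rara, the gene of retinoic acid receptor alpha, read 6.79, 6.90 and 6.996 in control and 6.87, 6.90 and 6.69 in HDAC2 KO, with a difference of -0.075 (SE 0.069, 95% confidence interval -0.234 to 0.085, adjusted p = 0.512). Rarb, itself a textbook target of retinoic acid through the DR5 element shown above, did not reach the filter level, with 5.85, 5.60 and 5.81 in control and 6.01, 5.85 and 5.84 in HDAC2 KO. The Rarb groups overlapped at their edges, and its difference, tested among all probe sets, was 0.15 (SE 0.081, 95% confidence interval -0.043 to 0.335, adjusted p = 0.440). At signals this low a change in either receptor below these limits was not detectable. The other retinoid receptor genes were also not called: Rarg differed by 0.047 (adjusted p = 0.432), Rxra by 0.067 (adjusted p = 0.433) and Rxrb by -0.047 (adjusted p = 0.418), and Rxrg lay below the filter. Among 4 tested cofactors, the coactivator gene Ncoa3 fell by 0.20 (SE 0.037, adjusted p = 0.00853), a call lost only in the test of all probe sets (0.0811, lowest over all settings 0.000869). The corepressor gene Nrip1 differed by -0.10 (SE 0.036, adjusted p = 0.0845) and was called lower in 3 of 16 other settings: further quantile normalization (0.0326), an intensity trend (0.0354) and array weights (0.0424).

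Of 11 tested textbook targets of retinoic acid, 2 rose, Isx and Lrat, and 0 fell, with a median difference of 0.044 beside 0.0032 over all genes tested. That share is near the 17.9% of all genes called, and Lrat is the gene given above that passed the filter through its HDAC2 KO mean and lost its call in 6 of 14 settings. Rai14, a gene named for its induction by retinoic acid, differed by 0.13 (SE 0.040, adjusted p = 0.0571), and its adjusted p lay between 0.0113 and 0.253 over the other settings. Tgm2, the transglutaminase gene, differed by -0.020 (SE 0.040, adjusted p = 0.781). Cyp26a1 and Cyp26b1, whose products break down retinoic acid and whose genes it induces, both stayed under the filter, with control means of 4.76 and 6.53, HDAC2 KO means of 4.79 and 6.54 and overlapping groups.

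Gut homing receptor genes that retinoic acid controls in lymphocytes, and the ligand gene of 1 of them, fell in 3 of 3 tested cases. Of all genes, 8.2% were called lower, and this list was written with earlier results of these data known. Itgb7 and Itga4, for the chains of the gut homing integrin, fell by 0.37 and 0.27 on the log2 scale (adjusted p = 0.00218 and 0.00768). Only 1 of 5 Itga4 probe sets passed the filter, and 2 of the other 4 had differences of the opposite sign and were not called. The Itga4 call was lost in the limma test of all probe sets (adjusted p = 0.0544). Madcam1, for the endothelial ligand of that integrin, fell by 0.61 (SE 0.051, adjusted p = 0.00016). The homing chemokine receptor gene Ccr9 lay below the filter at 5.54 in both groups. Gpr15, also of this list, lay below it at 4.23 in control and 4.04 in HDAC2 KO, with groups that did not overlap. Leukocyte markers moved with these genes: Ptprc, the CD45 gene, fell by 0.80, and summed B cell and T cell markers lay at 0.501 and 0.617 of control. Endothelium markers fell in 3 of 5 cases. The part of fewer leukocytes or vessels in these values was not tested.

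Over all pathway lists, 9 of 45 tested genes other than the 9 described first rose and 9 fell. In all, 18 of 45 were called, beside 17.9% of all genes. The lists were written with earlier results of these data known, so no conclusion is drawn from that share. The median difference of the 45 genes was 0.0078.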

How the data were processed

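Per the submitters' processing notes, the deposited log2 values were made by the authors with RMA (no version given): background correction, quantile normalization and summary per probe set. The scale was read from the values (array medians 6.17 to 6.21). RMA hides changes in total RNA and compresses low signals. Precision is limited by the 3 arrays in each group. The source labels name 1 numbered mouse per array, and p-values measure the spread between these samples. No batch of hybridisation or scanning could be tested from the value table used here.

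Of 45101 probe sets, 64 were array controls. The platform annotation of 2016 gave 1 symbol to 34945, several to 932 and none to 9160, and 34741 matched RefSeq (GRCm38.p6) through the Entrez ID with 0 symbols changed. The probe set of highest mean stood for each of 18193 genes, and the 10916 at or above the 40th percentile (6.66) were tested across all genes with limma 3.58.1 in R 4.3.3 (lmFit, eBayes, group as the sole term). Single probe sets were also tested over all 45037. With 3 against 3 samples an exact permutation test cannot give a p under 0.1. The fit and the motif search were tested on simulated data. Members and gene lists were chosen with earlier results of these data known. Named are the 9 genes, Hdac2, Aldh1a7, called pathway genes, up to 3 others per list by smallest p, and of each marker list the 3 of highest signal and any called, most of which are given only within counts and sums. Some genes picked by smallest p were left out of the account by hand, and none was called. They were Ncoa1 (-0.095), Dhrs7 (-0.090), Rdh13 (-0.078) and Rarres2 (-0.069), whose groups did not overlap, and Ncoa2 (-0.042) and Stra6l (0.031), whose groups did. Some genes below the filter or of small difference were named for their roles after their values were seen. These were Stra6, Crabp2, Cyp26a1, Cyp26b1, Rxrg, Ccr9, Gpr15, Itgax, Itgae, Cd68, Adgre1, Cx3cr1, Cd209a, Msln, Wt1, Upk3b, Lrrn4, Car4, Tgm2 and Dhrs3.

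Both groups have mice numbered 1 to 3 in the source labels and replicates 1 to 3 in the titles. After subtraction of group means, arrays correlated with r of 0.21, 0.34 and 0.20 for equal numbers, against -0.37 to 0.18 for others. The numbers were therefore treated as pairs in the fit with a replicate block, on the strength of these correlations and not of a label.

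Other settings were no filter, the 60th percentile, the mean of probe sets, no _s_at, _x_at or _a_at probe sets, further quantile normalization, median centring, array weights, robust variances with an intensity trend, the replicate block, leaving out each array, and all probe sets one by one.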

Additional observations from a re-analysis of the deposited data

How the results depend on the processing

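Over the 8 measured genes, 120 values from other settings were computed: 100 kept direction and side of the threshold, 18 lost the call and 2 changed sign. The sign changes were of Rdh10, uncalled throughout, at -0.000091 for the mean of its probe sets and -0.025 without _s_at, _x_at and _a_at probe sets. The number of the described genes called, 5, became 3 without the filter or with median centring, 2 with the filter at the 60th percentile (3 tested) and 2 with all probe sets tested one by one, and lay between 3 and 5 without single arrays. The count of other retinoid genes called, 18, became 9 with the 60th percentile (27 tested) and 10 over all probe sets. The count over all genes, 1952, became 3506 with array weights and 926 over all probe sets, and lay between 1130 and 2107 without single arrays. Of the probe sets, 2 were called, or 3 with a trend or array weights. With the replicate block 1943 genes and the same 5 described genes were called, and of the other retinoid genes Rdh5 lost its call (17 called). The block changed no other call among the genes followed through these settings. Most marker genes were not followed. Bco1, uncalled throughout, read 0.0030 after further quantile normalization, 0.028 with array weights and between -0.044 and 0.017 without single arrays. Aldh1a7 lay between -0.0076 and 0.091 without single arrays. Fewer genes or samples enter the filtered and leave-one-out fits. The cause of the other changes was not tested. Low signal limits what can be seen of Rarb and the Cyp26 genes, which lay below the filter.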
